A study of Arabidopsis thaliana with 4 samples.

Results

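The genes described here decorate anthocyanins or switch their synthesis on or off in Arabidopsis thaliana. They were chosen by gene identifier and number 9, of the 11508 genes that appeared in at least 1 of the authors' 6 tables of differences between libraries. The 4 decoration genes are UGT75C1 (gene identifier 827046), 3AT1 (839366), 3AT2 (3766646) and SCPL10 (816831). The 2 activators are GL3 (834133) and EGL3 (842669), and the 3 repressors are LBD37 (836878), LBD38 (824156) and LBD39 (829909). All 9 appeared in at least 1 table. RNA sequencing had been done on calli, masses of dividing plant cells in culture, of wild-type plants of the ecotype Col-0. Roots of plants 30 days old had been cut, made to form callus with 0.5 mg/L of the synthetic auxin 2,4-D, and subcultured every 3 weeks, so every group had grown on 2,4-D before. The 4 groups were salt-treated calli (NaCl at 100 mM) kept on 2,4-D, salt-treated calli without it, calli on 2,4-D alone, and untreated calli on Murashige and Skoog (MS) medium, with the salt treatments lasting 4 weeks. Each group was 1 sample of pooled RNA, so no difference below has a replicate check.

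Anthocyanins are red to purple flavonoid pigments stored in the vacuole, and in Arabidopsis they accumulate under stresses such as salt, strong light and nutrient shortage. The coloured core is made by the flavonoid pathway and is then decorated: sugars are attached by glycosyltransferases and acyl groups by acyltransferases, which stabilise the pigment. The late genes of the pathway are switched on by a complex of a MYB protein such as PAP1, a bHLH protein such as GL3, EGL3 or TT8, and the WD40 protein TTG1, and they are held back by repressors that include LBD37, LBD38 and LBD39.

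The libraries carried the codes 1A, 2A, 3A and 4A, which match no sample label, so no code is assigned to a treatment here. The values are the authors' log2 fold changes between pairs of libraries, in tables whose genes all differed by 1 or more on the log2 scale, in either direction, with an FDR under 0.001. That FDR compares the libraries and not the conditions. A gene missing from a table may have missed either limit or may have been undetected, and the level and depth of each library were not determined here. Of the 28 listed folds of the 9 genes, 4 equalled a whole number to within 1e-09 of its size, a form that any fold over a single smallest step takes. These are given by direction without a size. In all, 16 of the 28 folds were ratios of whole numbers with a denominator of at most 50, against 32.3% to 41.2% of all folds listed per table. A fold between values rounded to fixed steps always has this form when the smaller value is at most 50 steps, and it can also have it at higher values. All folds of UGT75C1, SCPL10, GL3 and EGL3 had it, together with 1 of 5 of LBD39 and 0 of those of LBD37, LBD38, 3AT1 and 3AT2. For the surrounding genes named below, only whole-number folds were set apart. Other large sizes given for them may therefore also rest on values of few steps. In such bulk samples, fewer cells of a type and less RNA per cell cannot be told apart.

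The 9 genes were listed as higher in each of the other libraries than in 1A, or were not listed. In 2A against 1A, 6 of the 9 genes were higher and 0 lower, where 28.8% of the genes listed anywhere were higher and 24.5% lower (53.3% in either direction). In 3A against 1A, 5 were higher and 0 lower, where 21.3% of the listed genes were higher and 11.1% lower (32.4% in either direction). In 4A against 1A, 7 were higher and 0 lower, where 32.5% of the listed genes were higher and 32.9% lower (65.4% in either direction). The shares of the 9 genes called were thus 66.7%, 55.6% and 77.8% in these comparisons. The 3 comparisons share library 1A, and the genes were chosen with earlier results of these data known, so the counts describe the set and give no independent support to one another.

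Between the other libraries the 9 genes went in different directions, also within a role. In 3A against 2A, SCPL10 and EGL3 were higher and GL3, LBD38 and LBD39 were lower, where 27.8% of the genes listed anywhere were higher and 19.7% lower. In 4A against 2A, 0 of the 9 were higher and LBD38 and LBD39 were lower, where 8.48% of the listed genes were higher and 21.2% lower. In 4A against 3A, GL3 was higher and SCPL10 and EGL3 were lower, where 19.6% of the listed genes were higher and 35.6% lower. The shares of the 9 genes called in these 3 comparisons were 55.6%, 22.2% and 33.3%, against 47.6%, 29.7% and 55.2% of the genes listed anywhere.

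**Figure D1:**
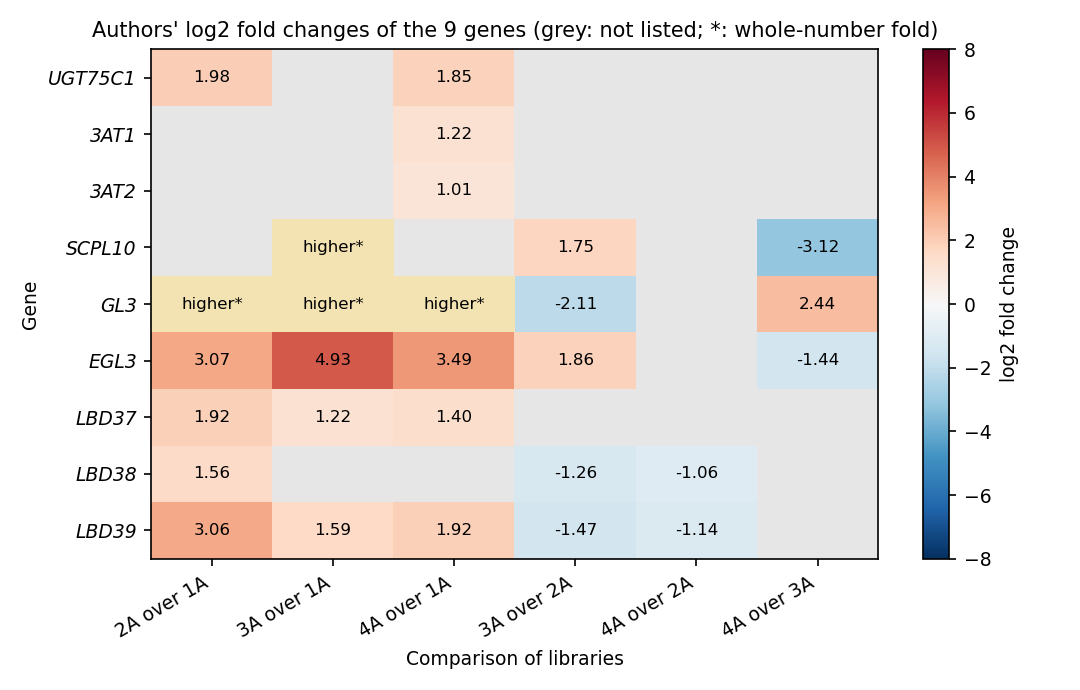
Authors' log2 fold changes of the 9 genes (rows) in the 6 comparisons of libraries (columns), with red for higher in the library named first, blue for lower, grey for not listed and a star on sand for a whole-number fold given by direction. The 3 columns against 1A hold no lower gene, and GL3 and EGL3 have opposite signs in 3A over 2A and in 4A over 3A, at -2.11 and 1.86 and at 2.44 and -1.44.

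UGT75C1, a glucosyltransferase that adds glucose to the anthocyanin core, was listed as higher in 2A and in 4A than in 1A. In the authors' deposited table its log2 fold change was 1.98 in 2A over 1A, or 3.94-fold, and 48.1% of the genes higher in 2A had a smaller fold. In the authors' deposited table for 4A over 1A it was 1.85, or 3.60-fold. Joined through 1A, its level in 4A differed from that in 2A by -0.13 on the log2 scale, and the comparison of 4A with 2A did not list it. No table listed UGT75C1 in a comparison with 3A, so its level there was not placed. The gene lies on chromosome 4 at 8122188 to 8123835, and its coding sequence is a single exon.

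The acyltransferase genes 3AT1 and 3AT2, whose enzymes attach coumaroyl groups to the sugar on the anthocyanin, were listed as higher in 4A than in 1A and in no other comparison. Their log2 fold changes in the authors' deposited table were 1.22 for 3AT1 and 1.01 for 3AT2, and 3AT2 lay just inside the authors' limit of 1. Of the 3741 genes higher in 4A than in 1A, 20.3% had a smaller fold than 3AT1 and 1.28% a smaller fold than 3AT2. The coding sequences of both genes, computed from the RefSeq annotation of TAIR10.1, were identical at 97.6% of 1041 aligned bases and shared an unbroken run of 220 bases. The share of reads given to each copy is therefore uncertain. Both genes lie on chromosome 1, 3AT2 at 873166 to 874476 and 3AT1 at 1009228 to 1011145.

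SCPL10, a serine carboxypeptidase-like acyltransferase that moves sinapoyl groups from sinapoylglucose onto anthocyanin, was highest in library 3A. In the authors' deposited table its log2 fold change was 1.75 in 3A over 2A, or 3.35-fold. It was -3.12 in the authors' deposited table for 4A over 3A, so that 3A held 8.67 times the level of 4A. The gene was also higher in 3A than in 1A, with a whole-number fold. Joined through 3A, SCPL10 in 4A differed from 2A by -1.37 on the log2 scale, a difference of 2.58-fold that the authors did not list. The order from high to low was therefore 3A, 2A and 4A, with 4A and 2A as neighbours that were not called different.

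SCPL10 lies on chromosome 2 in a row of related genes on the same strand, at 9792166 to 9796408. Its neighbours SCPL8, SCPL9, SCPL11, SCPL12 and SCPL13 matched its coding sequence at 83.5% to 86.6% of aligned bases, with an unbroken shared run of at most 73 bases, against SCPL9. Among 3A, 2A and 4A, SCPL12 had the same order, with 3.40 in 3A over 2A and -5.64 in 4A over 2A in the authors' deposited tables. Its folds of 4A over 1A and of 4A over 3A were whole numbers. For SCPL12 library 1A lay between 3A and 2A, at 1.71 in 3A over 1A and -1.69 in 2A over 1A in the authors' deposited tables. SCPL10 was lower in 1A than in 3A, and its level in 1A was not placed further. SCPL13 stood at -4.62 in 3A over 2A in the authors' deposited table, a comparison in which SCPL10 was higher. The fold of SCPL13 in 4A over 3A was a whole number, so its value in 3A may be small. SCPL11 was higher in 4A than in 3A, at 1.47 in the authors' deposited table, and SCPL9 was in none of the 6 tables. SCPL8, which makes sinapoylmalate from the same sinapoylglucose donor, was lower than in 1A in all 3 other libraries, at -1.58 in 4A, -2.06 in 3A and -1.66 in 2A in the authors' deposited tables.

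The bHLH activators GL3 and EGL3 were both listed as higher in 4A, 3A and 2A than in 1A, but their orders among these libraries differed. GL3 is best known for the development of leaf hairs and the root epidermis together with its close relative EGL3, and both can join the complex that switches on late anthocyanin genes. For GL3 all 3 folds against 1A were whole numbers. On the log2 scale it stood at -2.11 in 3A over 2A in the authors' deposited table, a level 4.32-fold lower in 3A. In 4A over 3A it was 2.44 in the authors' deposited table, or 5.42-fold higher in 4A. Joined through 3A, GL3 in 4A differed from 2A by 0.33 on the log2 scale and this pair was not listed, so the order was 4A and 2A, not called different, above 3A.

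EGL3 lies on chromosome 1 at 23599413 to 23603164, and GL3 on chromosome 5 at 16529090 to 16533287. On the log2 scale EGL3 stood at 3.49 in 4A over 1A, 4.93 in 3A over 1A and 3.07 in 2A over 1A in the authors' deposited tables. These are folds of 11.2 in 4A, 30.4 in 3A and 8.40 in 2A, and 86.4% of the genes higher in 3A than in 1A had a smaller fold than EGL3. All 3 folds were ratios with a denominator of 5. The value of EGL3 in 1A may therefore be small, and the sizes imprecise. In the authors' deposited table for 3A over 2A it was 1.86, and for 4A over 3A it was -1.44. The joined difference of 4A from 2A was 0.42 on the log2 scale and was not listed. EGL3 was thus highest in 3A, the library among these 3 in which GL3 was lowest, with 4A and 2A between 3A and 1A. Its fold in 2A over 1A came with an FDR of 0.000815 in the authors' deposited table, close to the limit of 0.001. Whether the difference between GL3 and EGL3 exceeds the spread between calli was not tested, since there was 1 library per group.

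Sequences upstream of the activators and of 2 further genes are shown because SCPL10 and EGL3 were higher in 3A than in 2A while GL3 and LBD39 were lower. Each is the 250 bases before the annotated gene start in RefSeq's TAIR10.1, 5′ to 3′ on the gene's strand. They lie at chr2:9791916-9792165 (plus strand) for SCPL10, chr1:23599163-23599412 (plus strand) for EGL3, chr5:16528840-16529089 (plus strand) for GL3 and chr4:17640926-17641175 (minus strand) for LBD39. Capitals mark CANNTG, the E-box core that bHLH proteins can bind.
SCPL10: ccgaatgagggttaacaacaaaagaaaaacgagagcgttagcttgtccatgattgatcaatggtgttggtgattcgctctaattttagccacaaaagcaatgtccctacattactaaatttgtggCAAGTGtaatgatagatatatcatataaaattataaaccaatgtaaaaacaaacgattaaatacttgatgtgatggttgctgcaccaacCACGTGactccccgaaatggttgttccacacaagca
EGL3: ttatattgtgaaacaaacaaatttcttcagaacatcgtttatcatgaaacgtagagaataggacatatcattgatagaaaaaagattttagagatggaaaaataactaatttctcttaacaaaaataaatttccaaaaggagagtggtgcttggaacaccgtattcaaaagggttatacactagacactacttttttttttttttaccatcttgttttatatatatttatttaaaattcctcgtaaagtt
GL3: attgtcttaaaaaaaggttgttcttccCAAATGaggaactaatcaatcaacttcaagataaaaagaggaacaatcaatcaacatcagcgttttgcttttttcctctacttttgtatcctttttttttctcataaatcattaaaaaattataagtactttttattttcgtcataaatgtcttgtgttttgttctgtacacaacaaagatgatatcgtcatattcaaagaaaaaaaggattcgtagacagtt
LBD39: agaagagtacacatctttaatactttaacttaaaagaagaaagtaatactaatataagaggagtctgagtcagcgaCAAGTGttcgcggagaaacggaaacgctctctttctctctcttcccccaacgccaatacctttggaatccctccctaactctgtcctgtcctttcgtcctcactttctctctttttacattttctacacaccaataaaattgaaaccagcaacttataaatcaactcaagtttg

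Searched on both strands, CANNTG occurred 2 times upstream of SCPL10, 1 time each upstream of GL3 and LBD39, and 0 times upstream of EGL3. It was present in this window in 4 of the 9 genes and in 55.3% of 27438 protein-coding genes. The G-box CACGTG, which is itself a CANNTG, was found upstream of SCPL10, 36 bases before its start, and in 6.49% of all genes. At the same place SCPL10 held ACGTGNC, an element of abscisic acid response that overlaps the G-box and that occurred in 8.57% of all genes. ANCNNCC, an element linked to MYB and bHLH control of anthocyanin genes, was present in 6 of the 9 genes and in 48.8% of all genes, with 5 matches upstream of UGT75C1. TGTCTC, an auxin response element, was present upstream of UGT75C1 and in 10.9% of all genes, and GCGGCG, an element of LBD proteins, in 0 of the 9 genes and in 1.56% of all genes. These matches describe letters in a window and not binding.

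The repressors LBD37, LBD38 and LBD39, transcription factors induced by nitrate that lower both anthocyanin synthesis and nitrogen uptake genes, were all highest in library 2A and lowest in 1A. In 2A over 1A the log2 fold change was 1.92 for LBD37, 1.56 for LBD38 and 3.06 for LBD39 in the authors' deposited table. LBD39 had the steepest range, with levels joined from the folds of 3.78-fold over 1A in 4A, 3.02-fold in 3A and 8.34-fold in 2A. For LBD37 the corresponding levels over 1A were 2.65-fold in 4A, 2.33-fold in 3A and 3.78-fold in 2A. For LBD38 they were 1.41-fold in 4A, 1.23-fold in 3A and 2.95-fold in 2A. All 3 genes had the order 2A, 4A, 3A and 1A. They lie on separate chromosomes, LBD37 on chromosome 5 at 26903866 to 26906524, LBD38 on chromosome 3 at 18514266 to 18516131 and LBD39 on chromosome 4 at 17639393 to 17640925.

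Neighbours in that order were not always called different. LBD39 was lower in 3A than in 2A, at -1.47, and lower in 4A than in 2A, at -1.14, in the authors' deposited tables. LBD38 was lower in the same comparisons, at -1.26 in 3A over 2A and -1.06 in 4A over 2A in the authors' deposited tables. LBD37 was not listed in either, with joined differences of -0.70 in 3A and -0.51 in 4A from 2A on the log2 scale. No table called 4A different from 3A for these genes, and the joined log2 differences of 4A from 3A were 0.19 for LBD37, 0.19 for LBD38 and 0.32 for LBD39. LBD38 was also not called different from 1A in 3A or 4A, at joined differences of 0.30 in 3A and 0.50 in 4A.

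**Figure D2:**
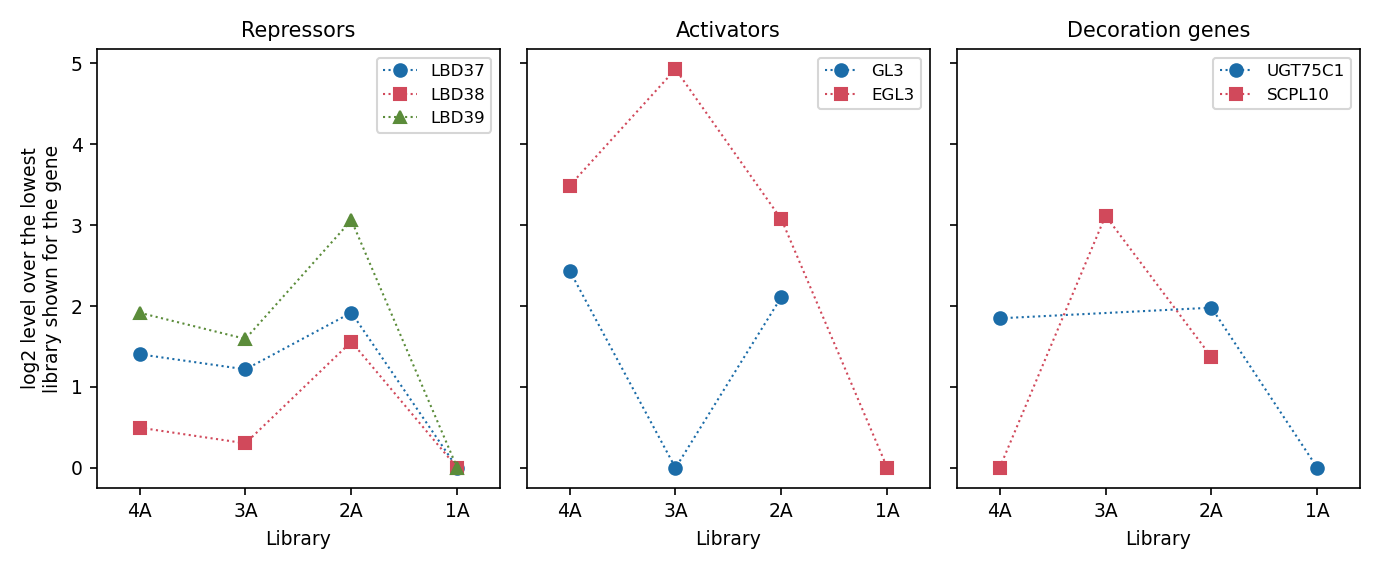
Log2 level of 7 of the genes in the libraries 4A, 3A, 2A and 1A over the lowest library shown for that gene, joined from the authors' fold changes and leaving out whole-number folds, with 1 point per library and dotted lines as a guide to the eye. The 3 repressors peak in 2A, EGL3 and SCPL10 peak in 3A, and GL3 is lowest in 3A among the libraries it could be placed in.

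The repressors belong to the class II LBD family, whose other members are LBD40, LBD41 and LBD42. LBD40 was lower than in 1A in every other library, at log2 fold changes of -4.06 in 4A, -1.72 in 3A and -4.36 in 2A in the authors' deposited tables. LBD41, known as a gene induced by low oxygen, was lower in 4A than in 1A, at -2.15 in the authors' deposited table, and lower in 2A than in 1A just past the authors' limit. LBD40 was higher in 3A than in 2A, at 2.65 in the authors' deposited table, where LBD38 and LBD39 were lower. In 4A over 2A, LBD41 was lower at -1.15 in the authors' deposited table, the direction of LBD38 and LBD39 there. LBD41 was not listed in 3A over 1A, and LBD42 was in none of the 6 tables.

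**Figure D3:**
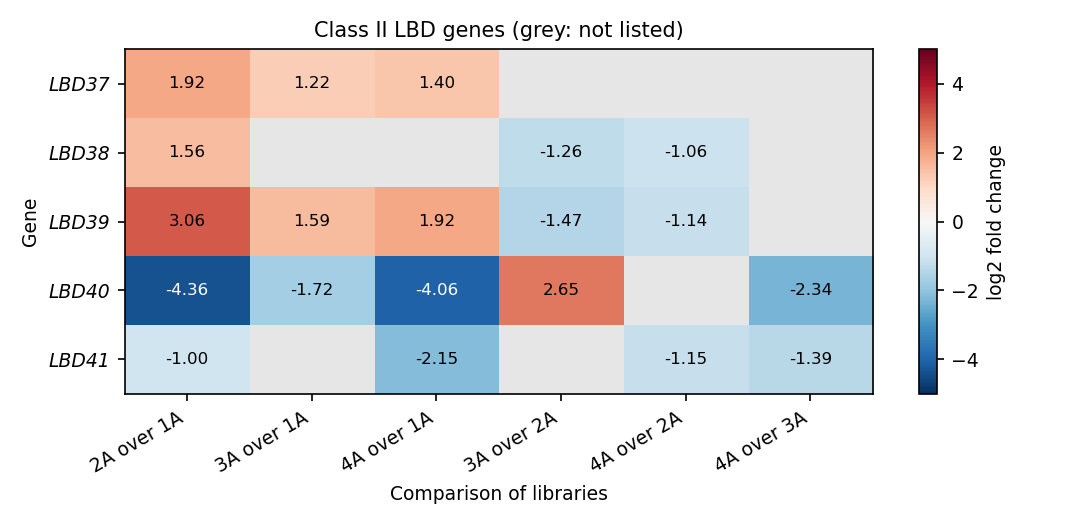
Authors' log2 fold changes of 5 class II LBD genes (rows) in the 6 comparisons of libraries (columns), with red for higher and blue for lower in the library named first and grey for not listed. LBD37, LBD38 and LBD39 are red or grey in the columns against 1A, where LBD40 and LBD41 are blue or grey.

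The regulators' coding sequences were less alike than those of 3AT1 and 3AT2. They were identical at 81.1% of aligned bases between GL3 and EGL3, with an unbroken shared run of at most 38 bases. Among the LBD genes identity was 81.2% between LBD37 and LBD38, 73.5% between LBD37 and LBD39 and 74.3% between LBD38 and LBD39, with shared runs of at most 35 bases. UGT75C1 overlaps genes on the opposite strand, AT4G14100 by 230 bases and the long noncoding RNA gene AT4G06175 by 217 bases. 3AT1 overlaps a small nucleolar RNA gene by 108 bases, and SCPL10 and GL3 overlap long noncoding RNA genes by 21 and 36 bases. No source used here says whether the authors counted by strand, so reads of these overlaps cannot be told apart.

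Genes with profiles like those of the regulators were sought among the 2489 genes with a symbol whose folds linked all 4 libraries without whole-number folds. Likeness was the root mean square difference of the 6 pairwise log2 fold changes, which derive from 4 libraries. For LBD37 the nearest genes were AGG3 at 0.094, KICP-02 at 0.12 and AFP2 at 0.19. For LBD38 they were ERF1 at 0.10, RSH2 at 0.12 and CRF6 at 0.13. For LBD39 they were GLR2.1 at 0.22, BOA at 0.30 and BEH1 at 0.30. EGL3 had more distant neighbours, GSO1 at 0.50, HAI2 at 0.60 and bZIP5 at 0.64. Between the genes themselves the difference was 0.63 for LBD37 and LBD38, 0.67 for LBD37 and LBD39 and 1.00 for LBD38 and LBD39, and EGL3 was 2.22 to 2.80 from the 3 LBD genes.

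Around these genes, the dedicated late steps of anthocyanin synthesis were missing from the tables, whereas the early flavonoid steps varied widely. None of the 10 late genes was in any of the 6 tables. They were DFR, LDOX, UGT79B1, UGT78D2, 5MAT, BGLU10, the vacuolar import gene TT19, and BAN, TT12 and AHA10. The last 3 serve the proanthocyanidin branch and not anthocyanin itself. Of 8 early flavonoid genes 6 were listed at least once. In 3A over 1A, 6 were higher and 0 lower (21.3% and 11.1% of the genes listed anywhere). Their median log2 fold change was 3.08, where the median size of all folds in that table, whatever their sign, was 1.90. In 4A over 3A, 0 were higher and 6 lower (19.6% and 35.6% of the genes listed anywhere). Their median was -3.15, where the median size of all folds in that table was 2.07. In 4A over 2A, 0 were higher and 4 lower, beside 8.48% and 21.2% of the genes listed anywhere. CHS, the chalcone synthase that opens the pathway, had -8.28 in 4A over 3A and -5.30 in 4A over 2A in the authors' deposited tables. FLS1, the flavonol synthase that draws on the same precursors, had -4.49 in 4A over 3A in the authors' deposited table. SCPL10 and EGL3 were also highest in 3A. In 4A over 1A, where UGT75C1, 3AT1 and 3AT2 were higher, CHS was the only early gene listed, at -4.83 in the authors' deposited table. The joined levels of CHIL and FLS1, which were not listed there, were higher in 4A than in 1A, by 1.16 and 0.41 on the log2 scale. CHI, F3H and UGT78D1, also not listed there, had joined levels that were lower in 4A than in 1A. CHI and UGT78D1 were lowest in 4A, and 1A stood above it by 0.76 for CHI and 0.60 for UGT78D1. Counted from its lowest library, 2A, F3H stood at 0.70 in 4A and 1.48 in 1A.

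The supply of sinapoyl groups used by SCPL10 was represented by 6 genes, of which 4 were listed. FAH1, the hydroxylase that leads to sinapate, was highest in 3A, at 3.82 in 3A over 2A and -4.31 in 4A over 3A in the authors' deposited tables. UGT84A3, a glucosyltransferase of hydroxycinnamates, was higher in 3A than in 1A, at 2.25, and lower in 4A than in 3A, at -2.04, in the authors' deposited tables. REF1, the dehydrogenase that forms sinapate, was higher in 4A than in 2A, at 1.20, and in 3A than in 2A, at 1.05, in the authors' deposited tables. It was also higher than in 1A in both libraries, at 1.16 in 4A and 1.01 in 3A. The comparison of 4A with 3A did not list REF1. The sinapate glucosyltransferase gene UGT84A2 was in none of the tables.

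A further 13 genes were activators of flavonoid genes or regulators related to these activators. Of them 3 were listed, MYB12, MYC1 and TTG2, and 0 of the PAP1, PAP2, MYB113, MYB114, TT8 and TTG1 genes. MYC1, a bHLH gene related to GL3 and EGL3, was higher in 4A, 3A and 2A than in 1A with whole-number folds, as GL3 was. MYB12, an activator of flavonols, was higher than in 1A by log2 fold changes of 4.35 in 4A, 3.28 in 3A and 5.13 in 2A in the authors' deposited tables. Of 6 other repressors 2 were listed. MYB4, a repressor of phenylpropanoid genes, was lower in 4A than in 3A, at -3.57, and higher in 3A than in 2A, at 3.49, in the authors' deposited tables. CPC, a small MYB protein that competes for GL3 and EGL3, was lower in 3A than in 2A, at -1.97, and higher in 4A than in 3A, at 1.05, in the authors' deposited tables. CPC thus shared its signs with GL3 in both comparisons.

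GL3 and EGL3 act in the root epidermis with the MYB protein WER to set the fate of cells without hairs, through the homeodomain gene GL2. Of 12 genes of this system, root hair genes included, 8 were listed. In 3A over 2A, 0 were higher and 3 lower, beside 27.8% and 19.7% of the genes listed anywhere. In 4A over 3A, 6 were higher and 2 lower, beside 19.6% and 35.6%. WER was lower in 3A than in 2A, at -2.62, and higher in 4A than in 3A, at 3.21, in the authors' deposited tables, the same signs as GL3. GL2 was lower in 4A than in 3A, at -4.88 in the authors' deposited table, the sign of EGL3. It was higher in 3A than in 1A with a whole-number fold, so its size in 4A over 3A may rest on values of few steps. RHD6, a bHLH gene of hair cells, was at 4.71 in 4A over 3A and -3.26 in 3A over 2A in the authors' deposited tables. Of the 6 root hair markers RHD6, COBL9, EXPA7, EXPA18, LRX1 and PRP3, 4 were higher in 4A than in 1A, 3 in 3A than in 1A and 5 in 2A than in 1A, and EXPA18 was in none of the tables. RSL4, a further root hair gene, was higher in 4A and in 2A than in 1A with whole-number folds. Of 9 root and callus markers 7 were higher in 4A than in 1A, 6 in 3A than in 1A and 7 in 2A than in 1A, where 32.5%, 21.3% and 28.8% of the genes listed anywhere were higher, and WIND1 and LBD29 were in none of the tables. All 7 listed markers were lower in 3A than in 2A, and 6 of them were higher in 4A than in 3A, the signs of GL3. WOX5, a gene of the root stem cell niche, stood at -2.72 in 3A over 2A and 3.35 in 4A over 3A in the authors' deposited tables. The part of a changed share of root cell types in the values of GL3 and EGL3 was not tested.

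LBD37, LBD38 and LBD39 are induced by nitrate, and of 23 nitrate response genes 18 were listed. In 2A over 1A, 10 were higher and 1 lower (28.8% and 24.5% of the genes listed anywhere), with a median log2 fold change of 1.97. In 3A over 1A, 12 were higher and 1 lower (21.3% and 11.1%), with a median of 2.04. In 4A over 1A, 7 were higher and 3 lower (32.5% and 32.9%), with a median of 1.32. The median size of all folds in these tables, whatever their sign, was 2.00, 1.90 and 2.03. The list medians keep the sign, so the values are unlike where directions are mixed. In 3A over 2A, 2 were higher and 4 lower (27.8% and 19.7%). In 4A over 2A, 1 was higher and 7 lower (8.48% and 21.2%). LBD38 and LBD39 were lower in both of these comparisons. In 3A over 2A the lower genes were no larger a share of the 23 than of the genes listed anywhere. In 4A over 3A, where none of the 3 repressors was listed, 2 nitrate response genes were higher and 6 lower (19.6% and 35.6%). BT1, a scaffold protein gene induced by nitrate, had the order of the LBD genes. It stood at 1.35 in 4A over 1A, 1.30 in 3A over 1A and 3.02 in 2A over 1A in the authors' deposited tables. The comparison of 4A with 3A did not list BT1. BT2, of the same list, had larger folds, at 5.27 in 4A over 1A, 3.88 in 3A over 1A and 5.27 in 2A over 1A. Unlike LBD38 and LBD39, BT2 was not listed in 4A over 2A. NIR1, the nitrite reductase, was at 1.41 in 4A over 1A, 2.37 in 3A over 1A and 3.19 in 2A over 1A in the authors' deposited tables. NRT1.5, a transporter that loads nitrate into the xylem, was also higher than in 1A in 2A, at 2.43, and in 3A, at 5.25. It was lower in 4A than in 1A, at -2.65, where LBD37 and LBD39 were higher. Between the other libraries it was highest in 3A, at -7.90 in 4A over 3A and 2.81 in 3A over 2A in the authors' deposited tables. NIA1, a nitrate reductase, was lower than in 1A in 2A, at -1.33, and in 4A, at -2.58, in the authors' deposited tables. It was also lower in 4A than in 3A, at -2.50. In 3A over 2A, where LBD38 and LBD39 were lower, NIA1 was higher, at 1.26.

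**Figure D4:**
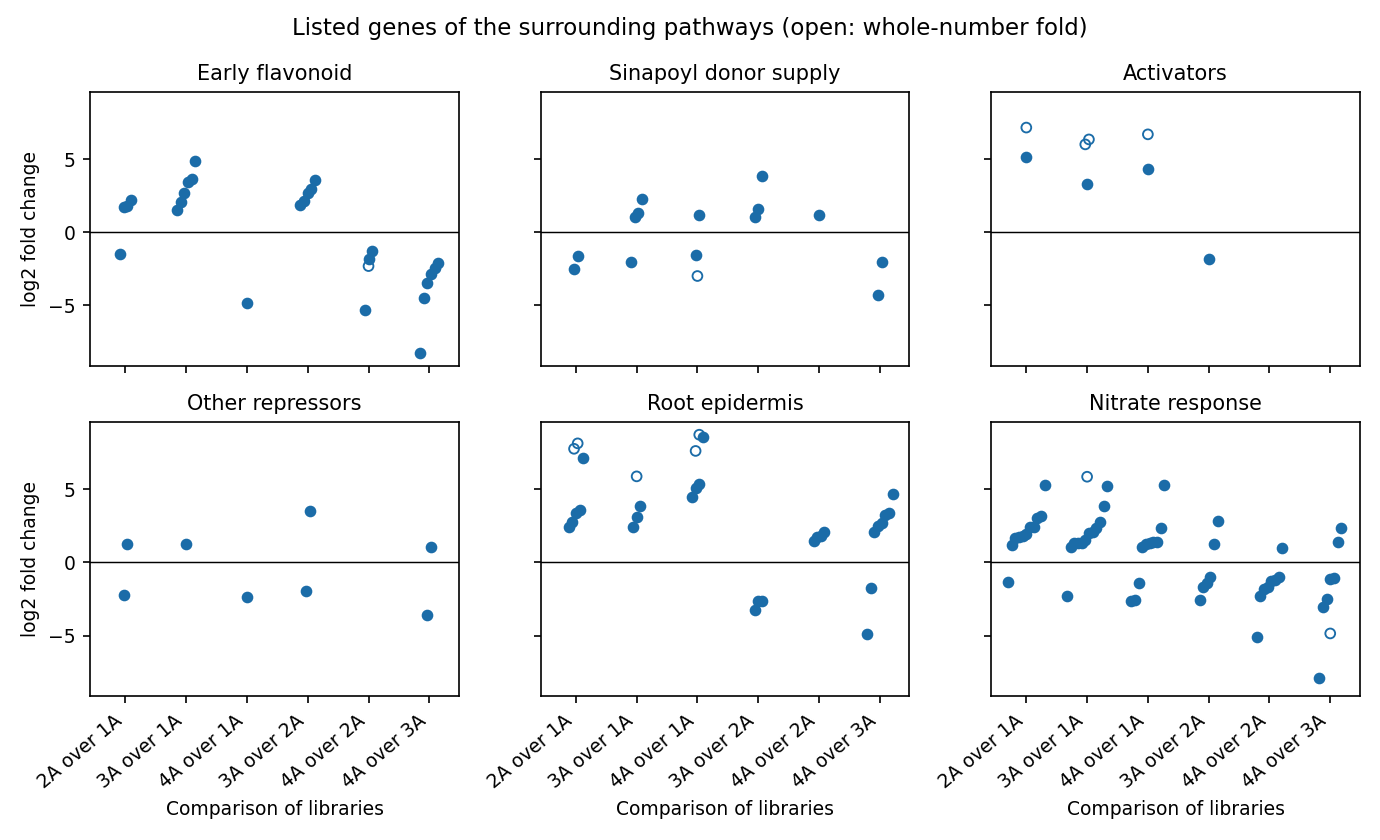
Authors' log2 fold changes of the listed genes of 6 surrounding groups (panels) in the 6 comparisons of libraries (columns), with 1 point per gene and open points for whole-number folds. All early flavonoid points lie above 0 in 3A over 1A and below 0 in 4A over 3A, and 10 of the 11 nitrate response points lie above 0 in 2A over 1A.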

How the data were processed

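Calli were sequenced as 1 pooled poly-A RNA sample per group on the BGISEQ-500 platform, per the labels' protocols. These protocols also speak of 3 biological replicates. Bowtie, Bowtie2 2.2.5, Cufflinks, StringTie 1.0.4 and HISAT appear in the submitters' processing notes without their roles, beside the build TAIR10. Each table holds the authors' log2 ratio of one library to another, per the file headers. The authors also deposited a p-value and an FDR for every gene listed. Their test and normalization are not stated in these sources. A further 36 columns of per-library values, whose codes also match no sample label, were not used. Depth and the level of each library were therefore not determined here, and no interval is given.

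The 9 genes and the 10 lists with 94 surrounding genes were chosen with earlier results of these data known. All 94 matched the TAIR10.1 reference table by locus tag. All 9 matched by gene identifier, 3 of them (UGT75C1, 3AT1 and 3AT2) without a symbol there. Members of each list were counted by the authors' calls. The shares of the 11508 genes listed anywhere stand beside deposited counts of the 9 genes, the early flavonoid, root and nitrate lists and the pathway genes together. Counts under the alternatives below have no such share. The lists also hold genes in no table, so their counts and these shares have unlike bases. No test was run. Relative levels were joined by adding fold changes that share a library, without whole-number folds, and checked on simulated data. The text names all 9 genes and, of each list, up to 4 genes per comparison with the largest folds that are not whole numbers, together with the 3 nearest profiles per gene. Other genes, such as MYC1, TTG2 and those named as unlisted, and BT1, NIR1 and NIA1 in some comparisons, were chosen after their values were seen. Alternatives were a 4-fold threshold, an FDR under 1e-10, folds without whole numbers and, chosen after seeing the data, folds without small ratios. Upstream sequences and coding sequences came from RefSeq's TAIR10.1. Python 3.11.15, NumPy 2.4.6, pandas 2.3.3, Biopython 1.88 and Matplotlib 3.10.9 were used.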

Additional observations from a re-analysis of the deposited data

How the results depend on the processing

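At a 4-fold threshold the number of the 9 genes called fell to 3 in 2A over 1A, 3 in 3A over 1A and 2 in 4A over 1A. It fell to 1 in 3A over 2A, 0 in 4A over 2A and 2 in 4A over 3A. With an FDR under 1e-10 it was 4 in each of 2A, 3A and 4A over 1A. It was then 2 in 3A over 2A, 2 in 4A over 2A and 1 in 4A over 3A. Without whole-number folds it was 5 in 2A over 1A, 3 in 3A over 1A and 6 in 4A over 1A, and unchanged otherwise. The last alternative, chosen after seeing the data, left out folds equal to a ratio with a denominator of at most 50. The number was then 2 in 2A over 1A, 2 in 3A over 1A and 4 in 4A over 1A. It was 2 in 3A over 2A, 2 in 4A over 2A and 0 in 4A over 3A. The share of all genes at the 4-fold and FDR alternatives was not computed. Whether the 9 genes fell faster than the other genes is therefore not known. The 85 pathway genes outside the 9 gave 32 calls in 2A over 1A, 35 in 3A over 1A and 27 in 4A over 1A. Of the genes listed anywhere, 53.3%, 32.4% and 65.4% were called in these comparisons. Between the other libraries the pathway genes gave 23 calls in 3A over 2A, 20 in 4A over 2A and 31 in 4A over 3A. The shares of the genes listed anywhere were 47.6%, 29.7% and 55.2% there. At a 4-fold threshold the pathway calls were 19 in 2A over 1A, 23 in 3A over 1A and 18 in 4A over 1A. They were 14 in 3A over 2A, 6 in 4A over 2A and 24 in 4A over 3A. Without small ratios they were 17 in 2A over 1A, 18 in 3A over 1A and 14 in 4A over 1A. They were 14 in 3A over 2A, 15 in 4A over 2A and 14 in 4A over 3A. The pathway counts under the other alternatives are not given here. All these alternatives remove genes from the lists by construction. Folds joined through another library restate the same library values and so give no check of the deposited ones.

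The codes, the single pooled library per group and the depth, which was not determined here, limit every value. No paired analysis was possible because each group had 1 sample and no test was run.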
